A study of Homo sapiens with 48 samples.

Results

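RBM39, RBM23, U2AF1, U2AF2, PUF60, RBM5, RBM6, RBM10 and RBM17 encode RNA-binding proteins that act at or near the 3′ splice site, and their mRNAs and splicing were followed across 6 groups of RNA-seq libraries. The 9 genes were taken by symbol from a table of 19847 genes, and their 307 splicing events from a table of 363278 events. The rows were found by gene symbol and not by a threshold on a measured value, but the genes were chosen with earlier results of these data known. The cells were IMR90 human lung fibroblasts carrying ER:RAS, an oestrogen-receptor fusion of HRAS with the G12V change that is switched on by 4-hydroxytamoxifen (4OHT). Every group carried the transgene, and DMSO was the uninduced control. On day 6 of DMSO or 4OHT, cells were transfected with a non-targeting siRNA (siNT1 or siNT2), an siRNA against RBM39 (siRBM39-06 or siRBM39-08) or an siRNA against SF3B1 (siSF3B1-13 or siSF3B1-16), and RNA was collected 2 days later. Each group held 8 libraries, 4 for each of its 2 siRNAs. The model is a single fibroblast line, and an siRNA lowers an mRNA without deleting its gene.

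Splicing of an intron begins when its ends are marked. At the 3′ end, U2AF2, the large subunit of the U2 auxiliary factor, binds the pyrimidine tract, and U2AF1, the small subunit, contacts the AG that closes the intron. They help to place the U2 snRNP, whose protein SF3B1 sits at the branch point. RBM39 and its paralogue RBM23 are related to U2AF2, PUF60 can act alongside U2AF2 at weak tracts, and RBM17 (SPF45) shares with RBM39 and PUF60 a U2AF homology motif that can bind SF3B1. RBM5, RBM6 and RBM10 are related regulators of alternative exons. Many splicing factor genes hold a poison exon, a cassette exon with an in-frame stop whose inclusion exposes the mRNA to nonsense-mediated decay.

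The exons and introns on which the results turn were read from the GRCh37 genome on the coding strand, so that the splice sites that changed can be seen. For exons, capitals mark the exon, with 30 intron bases before it and 10 after it. For introns, capitals mark the 3 exon bases on either side.
RBM39 73-nt exon: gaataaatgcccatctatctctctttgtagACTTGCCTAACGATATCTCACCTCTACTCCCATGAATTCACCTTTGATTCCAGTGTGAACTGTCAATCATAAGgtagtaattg
RBM39 66-nt exon: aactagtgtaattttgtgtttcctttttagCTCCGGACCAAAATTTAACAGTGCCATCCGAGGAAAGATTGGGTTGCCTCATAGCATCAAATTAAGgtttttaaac
RBM23 54-nt exon: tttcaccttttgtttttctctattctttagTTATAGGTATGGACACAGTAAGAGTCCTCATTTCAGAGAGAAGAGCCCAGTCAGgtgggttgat
U2AF1 upstream 67-nt exon: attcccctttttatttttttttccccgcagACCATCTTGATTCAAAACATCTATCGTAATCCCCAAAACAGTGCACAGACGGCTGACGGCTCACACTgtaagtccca
U2AF1 downstream 67-nt exon: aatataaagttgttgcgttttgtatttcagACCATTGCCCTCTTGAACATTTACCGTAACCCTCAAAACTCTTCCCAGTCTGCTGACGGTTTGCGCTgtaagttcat
U2AF2 64-nt exon: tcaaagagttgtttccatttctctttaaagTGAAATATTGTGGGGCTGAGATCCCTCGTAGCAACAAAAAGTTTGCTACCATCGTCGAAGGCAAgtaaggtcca
RBM5 85-nt exon: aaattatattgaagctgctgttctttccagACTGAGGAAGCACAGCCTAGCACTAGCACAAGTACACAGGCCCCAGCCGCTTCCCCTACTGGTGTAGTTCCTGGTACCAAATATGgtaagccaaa
RBM10 84-nt intron: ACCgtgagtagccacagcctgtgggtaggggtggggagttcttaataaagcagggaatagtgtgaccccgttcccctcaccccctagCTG
U2AF2 294-nt intron: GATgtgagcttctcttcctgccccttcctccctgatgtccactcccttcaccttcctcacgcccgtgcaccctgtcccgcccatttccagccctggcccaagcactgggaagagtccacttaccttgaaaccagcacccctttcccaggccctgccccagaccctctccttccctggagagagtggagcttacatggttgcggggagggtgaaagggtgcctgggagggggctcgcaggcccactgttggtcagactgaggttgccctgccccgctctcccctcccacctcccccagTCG

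With the flanking bases, these stretches are the RBM39 73-nt exon at chr20:34328437-34328549 (minus strand), the RBM39 66-nt exon at chr20:34317374-34317479 (minus strand), the RBM23 54-nt exon at chr14:23374805-23374898 (minus strand), the U2AF1 upstream 67-nt exon at chr21:44521466-44521572 (minus strand), the U2AF1 downstream 67-nt exon at chr21:44520553-44520659 (minus strand), the U2AF2 64-nt exon at chr19:56173107-56173210 (plus strand), the RBM5 85-nt exon at chr3:50147782-50147906 (plus strand), the RBM10 84-nt intron at chrX:47041263-47041352 (plus strand) and the U2AF2 294-nt intron at chr19:56171585-56171884 (plus strand). Pyrimidines made up 95% of the last 20 intron bases at the U2AF2 intron, 90% before the RBM23 exon and the upstream U2AF1 exon, and 65% before the downstream U2AF1 exon and the RBM5 exon. The median was 75% (range 40% to 100%) over the 125 introns of the reference (MANE) transcripts of 8 of the 9 genes. The U2AF1 exons were identical at 44 of 67 positions. These letters describe the sites and entered no test.

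Each library held 31467221 to 52734636 gene counts (median 39656598), and gene levels are given as counts per 1000000 counts (CPM) after TMM scaling. All 8 fibroblast markers were detected, with summed cRPKM (reads scaled to library size and to the mappable length of the gene) of 11304 to 12335 in DMSO siNT and 4450.4 to 4648 in 4OHT siNT libraries. Of 9 listed markers of other cells, 4 epithelial genes summed to 28.04 to 116 cRPKM, mainly KRT18 and KRT8, 3 leukocyte genes to 21.6 to 66.5, mainly CD68, and 2 endothelial genes to 0.0600 to 0.900. CDH1 reached at most 0.190 cRPKM, PTPRC was at 0 in 25 libraries and CDH5 in 15. IL1B, a cytokine of RAS-induced senescence, averaged 0.184 cRPKM in DMSO siNT and 2023 in 4OHT siNT. The library of 4OHT siRBM39-08 replicate 4 stood apart from its group in several of the 9 genes. It also had the highest epithelial sum, whose part in its values was not tested. Some results of 4OHT siRBM39 are given with and without this library. Others, such as those of SF3B1, U2AF2 and the partner genes, are given only with it. In 4 libraries titled siNT2 in 4OHT another label reads siNT1, and the title was used.

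RBM39, a target of the knockdowns, checked the labels. In DMSO it ran from 158.4 to 185.3 CPM (median 172.1) in siNT and from 24.2 to 30.96 CPM (median 27.4) in siRBM39. In 4OHT it ran from 114.6 to 127.4 CPM (median 120.4) and from 13.7 to 18.4 CPM (median 16.6). No siRBM39 library came near an siNT library, and RBM39 fell by 83.9% in DMSO and by 86.5% in 4OHT (log2 fold changes −2.64 ± 0.05 and −2.89 ± 0.05 SE, edgeR quasi-likelihood test, adjusted p = 3.15e-38 and 1.25e-39, 8 libraries a group). Both siRNAs lowered it, to 25.7 ± 1.2 CPM with siRBM39-06 and 29.1 ± 1.3 CPM with siRBM39-08 in DMSO (SD, n = 4 each). In a bulk sample, fewer cells that express a gene and less RNA per cell cannot be told apart.

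SF3B1 knockdown moved RBM39 the other way. RBM39 ran from 277.03 to 319.3 CPM (median 307.8) in DMSO siSF3B1 and from 233.6 to 260.3 CPM (median 252.2) in 4OHT siSF3B1, so that every siSF3B1 library lay above every siNT library. The rise was 1.78-fold in DMSO and 2.08-fold in 4OHT (log2 0.83 ± 0.05 and 1.06 ± 0.05 SE, edgeR, adjusted p = 4.27e-20 and 3.27e-24). SF3B1, the target of that siRNA, went from 358.6 ± 25.4 CPM to 32.8 ± 1.6 CPM in DMSO and from 328.02 ± 8.3 CPM to 27.3 ± 1.9 CPM in 4OHT (SD, n = 8 each). With siRBM39, SF3B1 stood at 491.7 ± 50.5 CPM in DMSO and 402.02 ± 73.04 CPM in 4OHT, higher by log2 0.46 ± 0.08 and 0.29 ± 0.08 (edgeR, adjusted p = 2.63e-06 and 0.00104), with overlapping libraries. The lowest SF3B1 library of 4OHT siRBM39, at 224.5 CPM, was siRBM39-08 replicate 4.

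**Figure D1:**
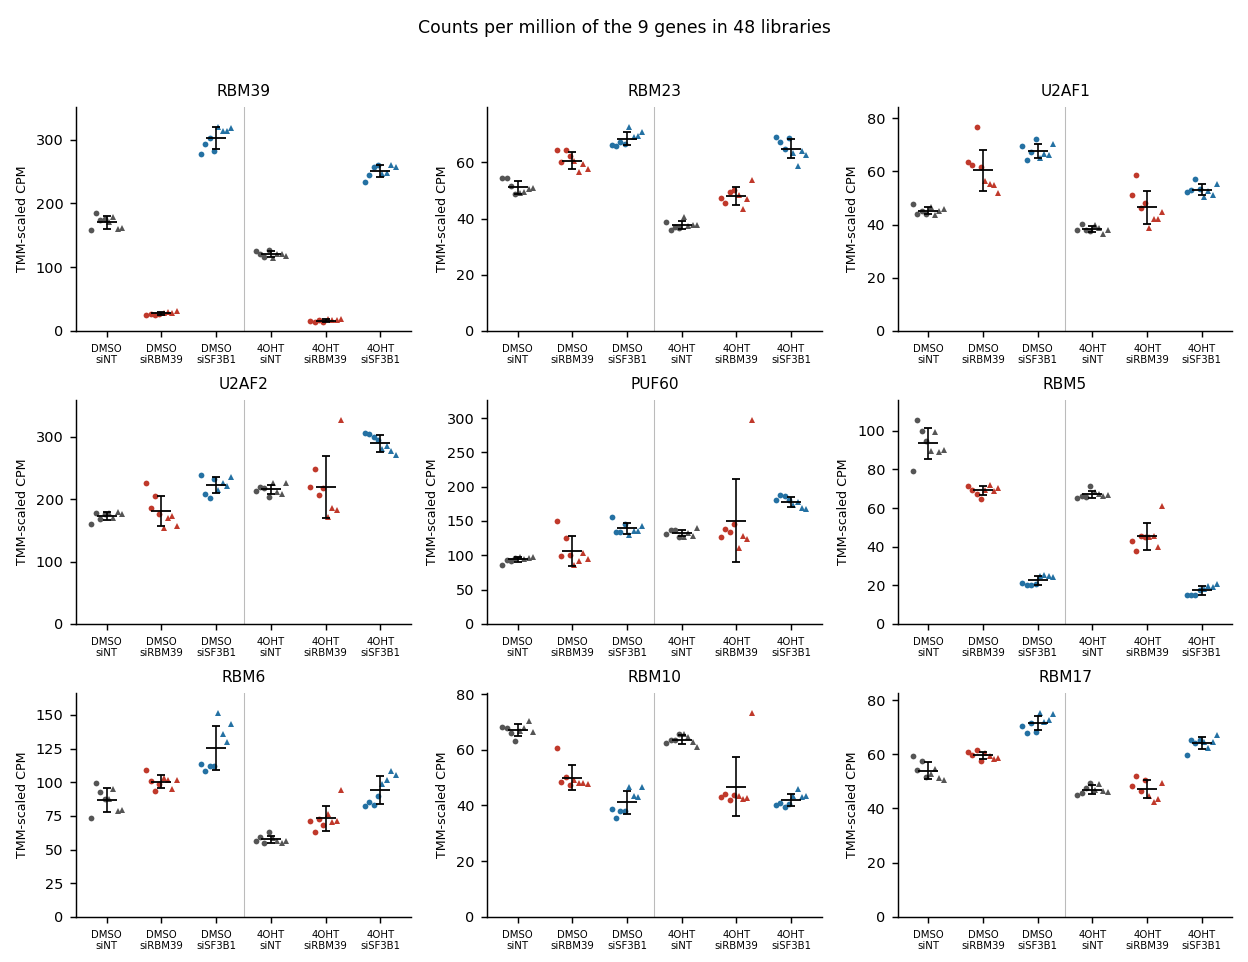
TMM-scaled CPM (y axes, linear from 0) in each of the 48 libraries, by group (x axes); circles are the first siRNA of a target (siNT1, siRBM39-06, siSF3B1-13), triangles the second, and black bars the mean ± SD of 8 libraries. RBM39 is lowest in siRBM39 and highest in siSF3B1, RBM5 is lowest in siSF3B1, and 1 triangle of 4OHT siRBM39 stands at 296.8 CPM in the PUF60 panel.

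Over the 9 genes, siRBM39 raised 4 and lowered 3 in DMSO (46.1% of the 9991 genes tested were called, 23.9% as higher and 22.2% as lower), and for 5 the 2 groups of libraries did not overlap (20.5% of genes). In 4OHT it raised 3 and lowered 3 (56.4% of genes called, 32.2% higher and 24.3% lower), 4 of the 9 without overlap (25.1%). RBM39, the target of siRBM39, is among the 3 lowered and among those without overlap in each treatment. It also enters the medians that follow. The median log2 fold change of the 9 was 0.14 in DMSO and 0.03 in 4OHT, against 0.02 and 0.05 over all genes. With siSF3B1, 7 rose and 2 fell in each of DMSO (72.7% of genes called, 36.5% higher and 36.2% lower) and 4OHT (77%, 39.4% higher and 37.6% lower), and all 9 were without overlap (54.9% and 68.9%). Their median was 0.42 and 0.45, against 0.02 and 0.03 over all genes. The siRBM39 and siSF3B1 comparisons share the siNT libraries.

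RBM23, the paralogue of RBM39, rose in each knockdown. It averaged 51.1 ± 2.3, 60.6 ± 2.9 and 68.5 ± 2.4 CPM in DMSO siNT, siRBM39 and siSF3B1, and 37.7 ± 1.4, 48.1 ± 3.1 and 64.8 ± 3.4 CPM in 4OHT (SD, n = 8 each). No knockdown group overlapped its siNT group. The log2 fold change was 0.25 ± 0.04 in DMSO and 0.35 ± 0.04 in 4OHT for siRBM39, and 0.42 ± 0.04 and 0.78 ± 0.04 for siSF3B1 (SE, edgeR, adjusted p = 6.67e-07, 1.15e-10, 1.42e-13 and 5.22e-23). The rise with siSF3B1 was larger in 4OHT than in DMSO, by log2 0.36 ± 0.05 (edgeR interaction, adjusted p = 6.60e-07).

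The U2AF subunits gave different values with siRBM39. U2AF1 ran from 43.6 to 47.7 CPM (median 45.1) in DMSO siNT and 51.8 to 76.6 (median 59.1) in siRBM39, and from 36.6 to 40.03 (median 37.9) and 38.8 to 58.8 (median 45.3) in 4OHT, where the groups overlapped. It rose by log2 0.42 ± 0.06 and 0.28 ± 0.06 (edgeR, adjusted p = 7.81e-08 and 7.87e-05). The libraries of siRBM39-06, at 66.1 ± 7.0 CPM in DMSO, were above those of siRBM39-08, at 54.5 ± 2.0 CPM (SD, n = 4 each). U2AF2 was not called with siRBM39, at log2 0.06 ± 0.08 in DMSO and 0.03 ± 0.08 in 4OHT (edgeR, adjusted p = 0.528 and 0.784). Its siRNAs differed in DMSO as well, at 197.99 ± 21.6 CPM and 163.4 ± 9.2 CPM (SD, n = 4 each), and with siRBM39-06 alone it was called, at log2 0.19 (edgeR, adjusted p = 0.00145). With siSF3B1 each subunit rose: U2AF1 reached 67.6 ± 2.7 CPM in DMSO and 53.2 ± 2.2 CPM in 4OHT, and U2AF2 went from 173 ± 6.3 CPM to 222.3 ± 13.2 CPM and from 215.6 ± 7.9 CPM to 289.5 ± 13.3 CPM (SD, n = 8 each; edgeR, adjusted p from 5.04e-05 to 3.24e-12). U2AF1 has a near-identical copy in the genome, and how shared reads were counted is not given in the sources used here, so its level is less certain.

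PUF60 and RBM17, which carry U2AF homology motifs, rose with siSF3B1. PUF60 went from 94.03 ± 3.6 CPM to 139.04 ± 8.5 CPM in DMSO and from 132.4 ± 4.9 CPM to 177.8 ± 7.7 CPM in 4OHT (log2 0.56 ± 0.11 and 0.43 ± 0.11, edgeR, adjusted p = 2.12e-05 and 0.000758). RBM17 went from 53.99 ± 3.2 CPM to 71.6 ± 2.7 CPM and from 47 ± 1.6 CPM to 64.1 ± 2.2 CPM (log2 0.41 ± 0.04 and 0.45 ± 0.04, edgeR, adjusted p = 1.98e-13 and 7.39e-15). No siSF3B1 library of either gene overlapped siNT. With siRBM39, PUF60 was not called, at log2 0.18 ± 0.11 in DMSO and 0.18 ± 0.11 in 4OHT (edgeR, adjusted p = 0.206 and 0.162). In DMSO it stood at 118.8 ± 24.2 CPM with siRBM39-06 and 93.6 ± 7.7 CPM with siRBM39-08 (SD, n = 4 each). It was called there with siRBM39-06 alone, at log2 0.34, and without replicate 4, at log2 0.23 (edgeR, adjusted p = 2.68e-05 and 0.0200), and in 4OHT with siRBM39-08 alone, at log2 0.28 (adjusted p = 0.0499). Its highest 4OHT value, 296.8 CPM, was that of siRBM39-08 replicate 4, and without this library the log2 fold change was −0.03 (edgeR, adjusted p = 0.703). RBM17 rose with siRBM39 in DMSO, by log2 0.14 ± 0.04 (edgeR, adjusted p = 0.00161; 0.104 with siNT1 as the only control), and stood at log2 0.00 ± 0.04 in 4OHT (adjusted p = 0.929). That difference between treatments was not called (edgeR interaction, adjusted p = 0.0736), but it was without siRBM39-08 replicate 4, at log2 −0.15 (adjusted p = 0.0316).

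RBM5 and RBM10 fell in each knockdown, and RBM6 rose. RBM5 ran from 79.3 to 105.5 CPM (median 92.4) in DMSO siNT, from 64.9 to 71.8 (median 69.4) in siRBM39 and from 19.96 to 25.4 (median 22.7) in siSF3B1. In 4OHT its medians were 66.4, 45.03 and 17.6 CPM, and in each treatment no knockdown group overlapped its siNT group. RBM5 fell by 25.99% and 32.5% with siRBM39 and by 75.8% and 73.9% with siSF3B1, in DMSO and 4OHT (edgeR, adjusted p = 1.14e-06, 2.26e-09, 3.65e-28 and 1.54e-27). Without siRBM39-08 replicate 4 the siRBM39 log2 fold change in 4OHT was −0.64, against −0.57 with it. Set directly against each other, RBM5 was 3.06-fold lower in siSF3B1 than in siRBM39 in DMSO (edgeR, adjusted p = 3.22e-24).

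RBM10 averaged 67.1 ± 2.1, 49.9 ± 4.4 and 41.2 ± 4.2 CPM in DMSO siNT, siRBM39 and siSF3B1 and 63.7 ± 1.6, 46.8 ± 10.7 and 42.1 ± 2.1 CPM in 4OHT (SD, n = 8 each). Its log2 fold change was −0.43 ± 0.07 and −0.45 ± 0.07 with siRBM39 and −0.70 ± 0.07 and −0.60 ± 0.07 with siSF3B1 (SE, edgeR, adjusted p = 3.54e-06, 1.11e-06, 6.70e-12 and 4.81e-10). Only 4OHT siRBM39 overlapped its siNT group, through siRBM39-08 replicate 4 at 73.1 CPM, and without it the log2 fold change was −0.57. RBM6, whose gene precedes RBM5 on chromosome 3, averaged 86.7 ± 9.0, 100.4 ± 4.8 and 125.7 ± 16.4 CPM in DMSO and 57.5 ± 2.8, 73.3 ± 9.3 and 94.3 ± 10.5 CPM in 4OHT. It rose in all 4 comparisons (edgeR, adjusted p = 0.0119 and 4.56e-05 with siRBM39, 4.57e-09 and 1.75e-12 with siSF3B1). The siRBM39 call in DMSO was lost with siNT1 as the only control and without replicate 1 (adjusted p = 0.111 and 0.171, edgeR), and in 4OHT the log2 fold change went from 0.35 to 0.29 without siRBM39-08 replicate 4. The annotated spans of RBM6 and RBM5 overlap on 1 strand, so reads of the shared stretch could be counted for either gene.

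**Figure D2:**
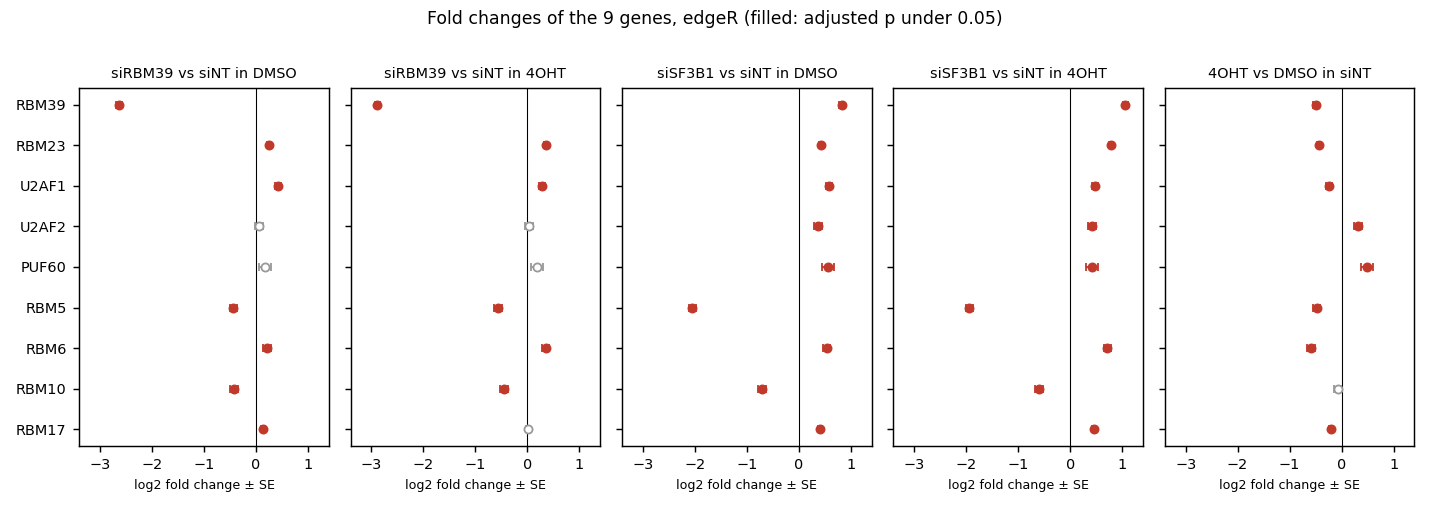
Log2 fold changes with their SE (x axes) of the 9 genes (y axis) in 5 comparisons, 1 a panel, from the edgeR fit over 48 libraries. RBM39 falls with siRBM39 and rises with siSF3B1, and RBM5 and RBM10 lie below 0 in each knockdown.

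Without knockdown, 8 of the 9 genes differed between 4OHT and DMSO, 2 higher and 6 lower in 4OHT (78.1% of genes called, 39% higher and 39.1% lower). For 8 the 4OHT and DMSO siNT libraries did not overlap (71.4%). No cells without ER:RAS were given 4OHT in these libraries, so the drug and RAS activation cannot be told apart here. PUF60 and U2AF2 rose, by log2 0.49 ± 0.11 and 0.32 ± 0.08 (edgeR, adjusted p = 0.000123 and 0.000242). RBM6 fell by 0.59 ± 0.07, RBM39 by 0.50 ± 0.05, RBM5 by 0.48 ± 0.07 and RBM23 by 0.44 ± 0.04 on the log2 scale. U2AF1 and RBM17 fell by 0.24 ± 0.06 and 0.20 ± 0.04 (edgeR, adjusted p from 0.000267 to 2.51e-14 for these 6). RBM10, at log2 −0.08 ± 0.07, was not called (adjusted p = 0.340). The median of the 9 was −0.24, against −0.00 over all genes. The lower sum of fibroblast markers in 4OHT moved with these differences, and its part in them was not tested.

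Levels can be compared between genes only per length, as cRPKM. In DMSO siNT, RBM39 was highest at 70.7 ± 4.2, followed by U2AF2 at 56.8 ± 2.3, U2AF1 at 51.4 ± 1.4, PUF60 at 40.3 ± 1.7 and RBM5 at 30.1 ± 2.7 cRPKM (SD, n = 8). RBM6, RBM23, RBM17 and RBM10 followed at 23.7, 20.3, 20.2 and 18.4 cRPKM. U2AF2 and U2AF1 overlapped in their libraries, as did each neighbouring pair from RBM5 down. In 4OHT siNT the order was U2AF2 at 70.5 ± 2.7, PUF60 at 56.4 ± 2.2, RBM39 at 49.6 ± 1.7, U2AF1 at 43.2 ± 1.3 and RBM5 at 21.5 ± 0.6 cRPKM, with no overlap between neighbours. RBM17, RBM10, RBM6 and RBM23 followed, from 17.5 down to 14.9 cRPKM, each overlapping the next.

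The siRBM39 effect differed between 4OHT and DMSO for 1 of the 9 genes (14.1% of genes called), by log2 −0.25 ± 0.07 (edgeR interaction, adjusted p = 0.0102). This gene was RBM39, the siRNA's own target, so the difference is one in depth of knockdown, with 16.1% of siNT left in DMSO and 13.5% in 4OHT. The siSF3B1 effect differed for 2 (37.8%), RBM23 as given above and RBM39 by log2 0.23 ± 0.07 (edgeR interaction, adjusted p = 0.00595). Each RBM39 difference was no longer called without replicate 2 or without replicate 3 (adjusted p = 0.0793 and 0.0588 for siRBM39, 0.0536 and 0.0540 for siSF3B1). The siRBM39 difference was also lost with siNT1 or siNT2 as the only control (adjusted p = 0.0643 and 0.104, edgeR), and the siSF3B1 difference with siNT1 as the only control or with siSF3B1-16 alone (0.0778 and 0.168). Between siSF3B1 and siRBM39, 9 genes differed in DMSO (67.7% of genes called) and 7 in 4OHT (71.4%), with 5 and 4 not overlapping (35.6% and 38.9%). RBM39, the target of siRBM39 and among these genes, was 11.04-fold higher in siSF3B1 than in siRBM39 in DMSO and 15.4-fold in 4OHT. PUF60 and RBM10 were the pair not called in 4OHT (adjusted p = 0.0512 and 0.0576, edgeR), and without siRBM39-08 replicate 4 PUF60 was called, at log2 0.46.

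Splicing was measured as percent spliced in (PSI), the percentage of junction reads that include an exon or retain an intron. Of the 307 events (134 exons, 124 introns, 31 Alt3 and 18 Alt5 sites), 31 met the filters of a fit across 13839 events on coverage, range and, for introns, balance of reads at the intron ends. They were tested with limma and called at an adjusted p under 0.05 and a difference of at least 5 points. None of the 31 belonged to RBM39 or RBM5. A further 213 events had reads but missed a filter. Where each compared group held 100 reads, these were compared by a two-sided exact permutation test and are named at a difference of at least 10 points and an unadjusted p under 0.05, a rule set after values were seen. The smallest p that the 12870 splits of 8 against 8 libraries allow is 0.000155. The splits treated the 8 libraries of a group as independent, although libraries of the same siRNA could resemble each other. The edgeR and limma fits pooled the siRNAs of a group as well. These p-values therefore do not allow for differences between the siRNAs of a group, which were seen for U2AF1 and U2AF2 mRNA. The rest of the 307 events were 23 first sites of Alt3 and Alt5 events and 40 events that met neither rule. No Alt3 or Alt5 site was called in the 5 comparisons that follow.

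With siRBM39, 3 of the 31 fitted events were called in DMSO (5.77% of all fitted events) and 4 in 4OHT (6.31%). The siSF3B1 libraries gave 5 called events in DMSO (19.7%) and 10 in 4OHT (23%). For 4OHT against DMSO in siNT the count was 1 (0.954%). Outside the fit, siRBM39 gave 5 of 199 events in DMSO (2.03% of all events so compared) and 10 of 181 in 4OHT (2.17%). The counts with siSF3B1 were 19 of 180 (5.34%) and 16 of 165 (6.57%), and with 4OHT alone 3 of 202 (0.463%). No test was made of whether these shares differ from those of other events.

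The poison exon of RBM39 was joined less often in each knockdown. This 73-nt exon at chr20:34328447-34328519 lies between exons 2 and 3 of the reference transcript and holds an in-frame stop. It occurs in 10 of the 47 GENCODE models of RBM39, 9 of them annotated for nonsense-mediated decay. Its skipping junction held 0 to 8 reads a group, so its PSI could not be used, and its junction reads were set against RBM39 gene counts, a measure chosen after values were seen. Per 1000 RBM39 counts, it had 5.47 to 9.51 (median 7.32) reads in DMSO siNT and 0.63 to 1.58 (median 0.98) in siSF3B1. In 4OHT it had 3.71 to 6.11 (median 4.39) in siNT and 0.24 to 1.26 (median 0.80) in siSF3B1. Every siSF3B1 library lay below every siNT library (exact permutation test, p = 0.000155 and 0.000155).

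In siRBM39, 3 reads joined the exon in the DMSO libraries, with 9624 RBM39 counts, against 401 reads with 53727 counts in siNT. That is 4.18% of the siNT rate (95% exact interval 0.858% to 12.3%, counting error only), and the libraries did not overlap (exact permutation p = 0.000155). In 4OHT, 3 reads with 5200 counts stood against 179 with 37782, or 12.2% of siNT (2.49% to 36.2%; exact permutation p = 0.00109). All 3 came from siRBM39-08 replicate 4, and the other 7 libraries held 0 reads with 4619 counts, which allows up to 0.649 reads per 1000. The siSF3B1 rates were 13.1% (10.3% to 16.5%) and 16.3% (11.9% to 22.1%) of siNT. Fewer poison exon reads per RBM39 count thus went with low RBM39 mRNA in siRBM39 and with high RBM39 mRNA in siSF3B1. In siNT, 4OHT had 63.5% of the DMSO rate (52.9% to 75.9%; exact permutation p = 0.000932), while per exon 1 to 2 junction read it was 0.540 in 4OHT and 0.675 in DMSO, in the same direction but not past the threshold (exact permutation p = 0.191).

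Exon 5 of RBM39, 66 nt at chr20:34317384-34317449, whose skipping keeps the reading frame, was skipped with siSF3B1. Its PSI was 96.6 ± 1.8% in DMSO siNT and 76.8 ± 3.6% in siSF3B1, and 97.7 ± 1.9% and 65.4 ± 6.5% in 4OHT (SD, n = 8 each). The highest siSF3B1 library, at 80.2%, lay below the lowest siNT library, at 94.4% (exact permutation p = 0.000155 and 0.000155). Reads of the skipping junction went from 57 to 635 in DMSO and from 29 to 785 in 4OHT. Both siRNAs gave the skipping, with 60.3 ± 3.0% for siSF3B1-13 and 70.4 ± 4.6% for siSF3B1-16 in 4OHT (SD, n = 4 each). With siRBM39 the exon stood at 95.3 ± 7.4% in DMSO and 97.9 ± 5.9% in 4OHT.

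Intron 4 of RBM39, the 2413 nt before exon 5, had a PSI of 10.02 ± 1.3% in DMSO siNT and 58.9 ± 10.2% in siRBM39, and 8.2 ± 2.8% and 56.4 ± 8.7% in 4OHT (exact permutation p = 0.000155 and 0.000155). Reads were uneven between its ends in 43 of 48 libraries, so its junctions are given apart. From siNT to siRBM39, reads from exon 4 into the intron went from 172 to 253 in DMSO and from 99 to 142 in 4OHT. Reads from the intron into exon 5 went from 21 to 9 and from 7 to 6. Joined exon 4 to exon 5 reads went from 869 to 95 and from 576 to 58. The higher PSI thus came with far fewer spliced reads, while the 5′ end of the intron had, in reads per 1000000 gene counts, 0.55 ± 0.10 and 0.74 ± 0.10 in DMSO (exact permutation p = 0.00513) and 0.31 ± 0.14 and 0.43 ± 0.10 in 4OHT (p = 0.0772). With siSF3B1 this 5′ end had 0.82 ± 0.24 reads per 1000000 gene counts in DMSO and 0.95 ± 0.25 in 4OHT (exact permutation p = 0.00932 and 0.000155), with overlap in DMSO. Its joined exon 4 to exon 5 reads were higher too, at 1892 and 1573. Of the 47 GENCODE models, 3 end inside this intron. A 564-nt RBM39 exon that matched no GENCODE model had a PSI of 19.8 ± 6.9% in DMSO siNT and 7.2 ± 3.1% in siSF3B1 (exact permutation p = 0.000777).

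**Figure D3:**
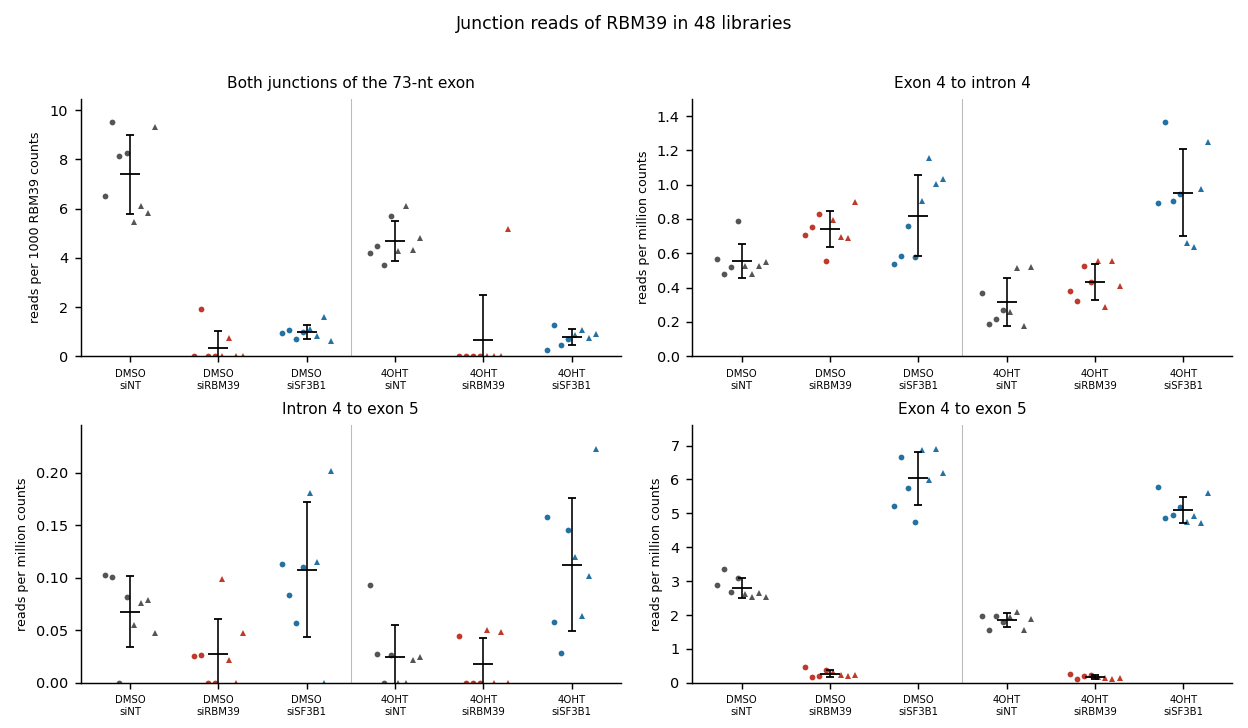
RBM39 junction reads in the 48 libraries, by group (x axes), with the scale on each y axis; circles and triangles are the first and second siRNA of a target and black bars the mean ± SD of 8 libraries, cut at 0. The 73-nt poison exon lies at 3.71 to 9.51 reads per 1000 RBM39 counts in siNT, and 1 siRBM39 library of 4OHT stands out at 5.16.

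Exon 6 of RBM23, 54 nt at chr14:23374815-23374868, whose skipping keeps the frame, lost inclusion in each knockdown. Its PSI ran from 82.7 to 94.7% (median 88.2%) in DMSO siNT, from 67.9 to 77.98% (median 73.9%) in siRBM39 and from 45.05 to 62.8% (median 50.8%) in siSF3B1. In 4OHT the medians were 97.4%, 78.4% and 50.1%, and no knockdown group overlapped its siNT group. The difference was −15.3 ± 2.1 points in DMSO and −22.1 ± 3.4 in 4OHT with siRBM39, and −36.4 ± 2.6 and −47.3 ± 3.6 with siSF3B1 (SE, limma, adjusted p = 0.00184, 1.92e-09, 6.22e-09 and 9.07e-16). The siRBM39 call in DMSO was lost with siRBM39-08 alone. This exon was also the 1 fitted event called between 4OHT and DMSO siNT, 7.0 ± 2.2 points higher in 4OHT (limma, adjusted p = 0.00231), with overlapping libraries, a call lost without replicate 2 or 3. Exon 4 of RBM23, 48 nt, had a PSI of 54.1 ± 14.2% in DMSO siNT and 16.5 ± 9.4% in siSF3B1 (exact permutation p = 0.000311). In 4OHT it had 53.3% and 11.4%, with 76 siNT reads, too few for the comparison.

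U2AF1 holds a pair of mutually exclusive 67-nt exons, the upstream one at chr21:44521476-44521542 and the downstream one, exon 3 of the reference transcript, at chr21:44520563-44520629. The knockdowns shifted the choice in opposite directions. Of the junctions into the next exon, the downstream exon took 68.9 ± 6.5% in DMSO siNT, 56.4 ± 5.1% in siRBM39 and 82.7 ± 4.1% in siSF3B1, and 71.1 ± 6.0%, 52.7 ± 8.3% and 83.9 ± 4.4% in 4OHT (SD, n = 8 each). The libraries overlapped in each comparison (exact permutation p = 0.000932 and 0.000311 for siRBM39, 0.000466 and 0.000466 for siSF3B1). The upstream exon took 31.1 ± 6.5%, 43.3 ± 5.1% and 16.6 ± 3.6% in DMSO. Neither exon was used in 1.76 ± 0.91% of junctions in 4OHT siSF3B1 and 0.15 ± 0.41% in siNT (exact permutation p = 0.000622). The share by junctions was chosen after values were seen. The PSI of the downstream exon counts the junction from its partner as skipping. That of the upstream exon counts only the junction that uses neither exon.

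By PSI, the downstream exon was −13.4 ± 3.1 and −19.5 ± 3.7 points lower with siRBM39 in DMSO and 4OHT and 18.5 ± 3.2 and 18.6 ± 3.3 points higher with siSF3B1 (SE, limma, adjusted p = 0.0111, 0.000102, 2.72e-05 and 9.01e-06). The siRBM39 call in DMSO was lost with either siRBM39 siRNA alone and with siNT2 alone. The PSI of the upstream exon, set against use of neither exon, was 99.4% in 4OHT siNT. In siSF3B1 it was −10.9 ± 2.0 points from that (limma, adjusted p = 5.49e-09). This PSI does not give the share of the upstream exon in the pair. By junctions that share was 28.7 ± 6.1% in 4OHT siNT and 14.3 ± 3.8% in 4OHT siSF3B1. Intron 7 of U2AF1, 1221 nt, was retained more with siSF3B1 in 4OHT, at 17.3 ± 2.7% against 4.7 ± 1.9% in siNT (exact permutation p = 0.000155).

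U2AF2 gained a poison exon and retained introns with siSF3B1. The 64-nt exon at chr19:56173137-56173200 lies within intron 5, holds an in-frame stop and occurs in 1 GENCODE model, annotated for nonsense-mediated decay. Its PSI ran from 0.0 to 6.0% (median 1.1%) in DMSO siNT and from 6.7 to 20.3% (median 16.1%) in siSF3B1, and from 0.0 to 2.6% (median 0.9%) and 17.4 to 32.04% (median 22.9%) in 4OHT. No siSF3B1 library overlapped siNT (differences 13.3 ± 1.7 and 22.3 ± 1.7 points, limma, adjusted p = 8.26e-10 and 4.50e-14). With siRBM39 it stood at 2.5 ± 1.2% and 2.8 ± 2.4%, and it was not called. U2AF2 mRNA was higher in the same siSF3B1 libraries.

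Intron 3 of U2AF2, 294 nt at chr19:56171588-56171881, with an in-frame stop, had a PSI of 1.8 ± 1.0% in DMSO siNT, 2.8 ± 0.9% in siRBM39 and 31.1 ± 1.9% in siSF3B1, and 1.8 ± 0.8%, 2.7 ± 0.9% and 36.4 ± 3.3% in 4OHT (SD, n = 8 each). All siSF3B1 libraries lay above all siNT libraries (exact permutation p = 0.000155 and 0.000155). In DMSO, reads across its 5′ end went from 38 to 596, across its 3′ end from 34 to 753, and spliced reads from 1930 to 1489. In 4OHT they went from 36 to 925, from 46 to 936 and from 2327 to 1607. Both ends thus gained reads. Intron 2, 831 nt, went from 0.3% to 6.6% in 4OHT (difference 6.4 ± 0.6 points, limma, adjusted p = 2.70e-16). Intron 5, 1312 nt, which holds the poison exon, went from 10.8 ± 4.1% to 21.3 ± 5.1% in DMSO and from 6.8 ± 2.5% to 26.4 ± 7.0% in 4OHT (exact permutation p = 0.00171 and 0.000155), with uneven ends in 16 of 48 libraries. In DMSO its difference was 9.8 and 9.5 points, under 10, without replicate 3 and without replicate 4.

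Exon 5 of PUF60, 51 nt on chromosome 8, whose skipping keeps the frame, moved in opposite directions in the knockdowns. Its PSI ran from 36.4 to 49.5% (median 45.8%) in DMSO siNT, from 9.2 to 22.2% (median 14.9%) in siRBM39 and from 50.1 to 69.2% (median 59.6%) in siSF3B1. In 4OHT the medians were 44.4%, 17.8% and 58.3%, and no knockdown group overlapped its siNT group. The difference was −29.02 ± 2.5 and −28.7 ± 2.6 points with siRBM39 and 16.7 ± 3.1 and 14.2 ± 2.5 with siSF3B1 (SE, limma, adjusted p = 1.48e-10, 3.40e-10, 0.000256 and 0.00167). The siSF3B1 call in 4OHT was lost with siNT2 alone. Between siSF3B1 and siRBM39 the exon differed by 45.7 ± 3.0 points in DMSO and 42.9 ± 2.1 in 4OHT (limma, adjusted p = 1.21e-16 and 1.62e-15). Exon 4 of PUF60, 90 nt, was at 100% in DMSO siNT and 89.02 ± 5.8% in siSF3B1, and at 100% and 82.4 ± 7.0% in 4OHT (limma, adjusted p = 6.63e-14 and 3.84e-17).

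**Figure D4:**
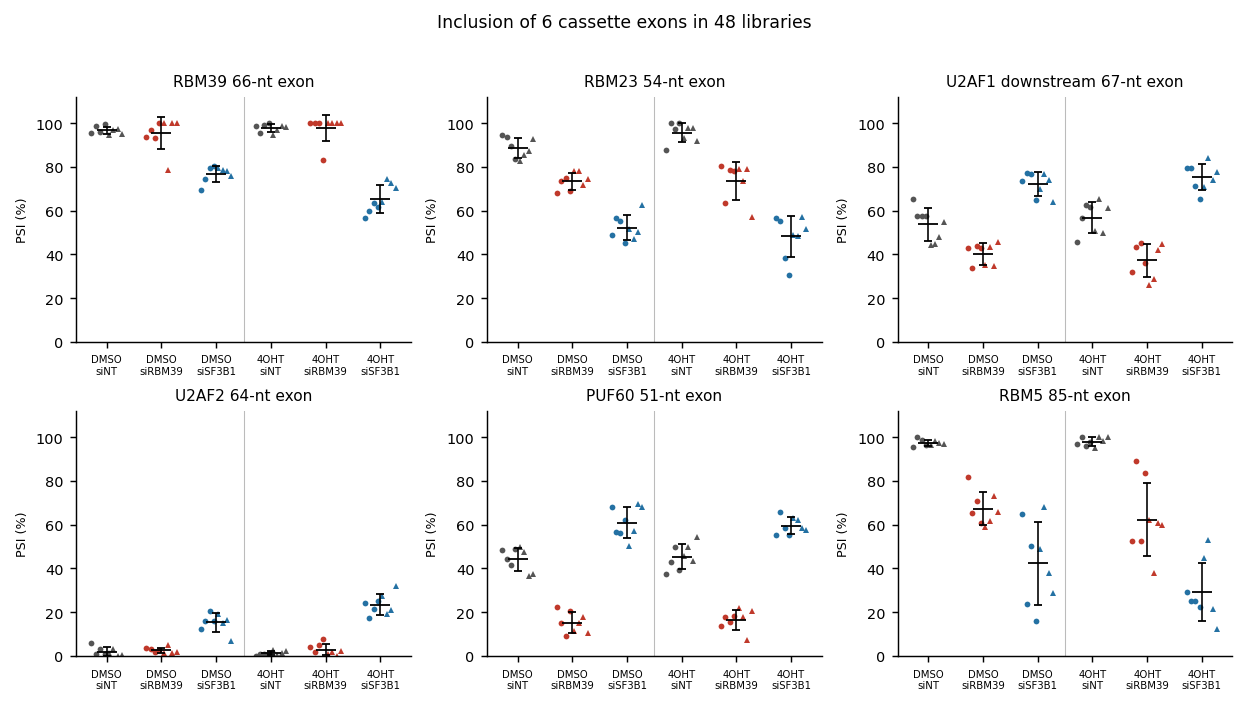
PSI in percent (y axes) of 6 cassette exons of RBM39, RBM23, U2AF1, U2AF2, PUF60 and RBM5 in the 48 libraries, by group (x axes); circles and triangles are the first and second siRNA of a target and black bars the mean ± SD of 8 libraries. The PUF60 and U2AF1 exons are lower in siRBM39 and higher in siSF3B1 than in siNT, while the RBM23 and RBM5 exons are lower in each.

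Exon 16 of RBM5, 85 nt at chr3:50147812-50147896, whose skipping shifts the frame, was skipped in each knockdown. Its PSI ran from 95.6 to 100% (median 97%) in DMSO siNT, from 58.7 to 81.5% (median 65.6%) in siRBM39 and from 16.1 to 68% (median 43.3%) in siSF3B1. In 4OHT the medians were 97.8%, 60.4% and 25%. No knockdown group overlapped its siNT group, with differences of −30.3 ± 2.7 and −35.6 ± 6.0 points for siRBM39 and −55.2 ± 6.7 and −68.7 ± 4.8 for siSF3B1 (exact permutation p = 0.000155 in each). The 8 siSF3B1 libraries held 154 reads of this event in DMSO and 111 in 4OHT, against 895 and 682 in siNT, so their values are less precise. RBM5 mRNA fell in the same 4 comparisons.

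Intron 5 of RBM5, and in 4OHT intron 6, had a higher PSI with siRBM39, and introns 10 and 23 with siSF3B1. Intron 5, 480 nt, went from 45.9 ± 8.2% to 58.9 ± 10.7% with siRBM39 in DMSO and from 34.2 ± 12.8% to 59.7 ± 25.98% in 4OHT (exact permutation p = 0.0179 and 0.0269), and between siNT groups it was −11.7 points in 4OHT against DMSO (p = 0.0482). Intron 6, 2477 nt, went from 36.7 ± 14.1% to 61.1 ± 17.9% with siRBM39 in 4OHT (exact permutation p = 0.00622). These libraries overlapped. In intron 5 the overlap in 4OHT came from siRBM39-08 replicate 4, at 0.0% on 1.06 corrected reads, and without it the difference was 34.1 points (exact permutation p = 0.000155). For intron 6 it was 18.8 points without that library, against 24.3 with it. From siNT to siRBM39, reads across the 5′ end of intron 5 went from 194 to 187 in DMSO and from 113 to 78 in 4OHT. Across its 3′ end they went from 96 to 91 and from 57 to 53, and spliced reads from 163 to 88 and from 162 to 33. Its higher PSI thus came with fewer spliced reads and no gain at its ends. For intron 6 in 4OHT the same reads went from 48 to 35, 31 to 40 and 82 to 28. The intron 5 calls were lost without replicate 1 or 2 in DMSO and without replicate 1, 2 or 3 in 4OHT, and that between siNT groups without replicate 2, 3 or 4. In siSF3B1, introns 5 and 6 stood at 33.5 ± 29.5% and 23.2 ± 14.6% in DMSO and 32.9 ± 20.3% and 39.7 ± 31.6% in 4OHT (SD), on 82, 64, 75 and 42 corrected reads, too few for the comparison. With siSF3B1, intron 10, 1057 nt, went from 0.0% to 18.5 ± 18.4% in DMSO without overlap (exact permutation p = 0.000155), and intron 23, 78 nt, from 5.7% to 21.5 ± 14.8% in DMSO and from 8.6% to 26.3 ± 12.8% in 4OHT with overlap (p = 0.00218 and 0.00202). In DMSO, reads across the ends of intron 10 went from 0 to 10 and from 0 to 14. Those across the ends of intron 23 went from 26 to 23 and from 23 to 23, and its spliced reads from 423 to 90. In 4OHT these intron 23 reads went from 25 to 20, 23 to 27 and 278 to 62. Reads were uneven between the ends of intron 23 in 16 of 48 libraries. Exon 20, 72 nt, was at 100% in DMSO siNT and 88.9% in siSF3B1, and at 100% and 89.6% in 4OHT (exact permutation p = 0.00699 and 0.0256), calls lost on leaving out any of replicates 2, 3 and 4 in DMSO or 1, 2 and 3 in 4OHT. Exon 8, 61 nt, was at 100% in DMSO and 88.1% in 4OHT siNT, with overlap (exact permutation p = 0.0256). Its coverage was low in 40 of the 48 libraries, so this difference is less certain.

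RBM6 had many events of moderate size, all with overlapping libraries. Its exons 3, 4 and 5 gained inclusion with siSF3B1 in 4OHT: exon 4, 90 nt, went from 73.2% to 91.4% (limma, adjusted p = 0.000121), exon 3, 1279 nt, from 60.4% to 82.3% (exact permutation p = 0.00233) and exon 5, 70 nt, from 68.1% to 84.9% (exact permutation p = 0.00311). With siRBM39 in 4OHT, exons 3 and 5 stood at 72.1% and 78.5% (exact permutation p = 0.0294 and 0.0214). In DMSO, exon 5 went from 73.8% to 85.9% with siSF3B1 (p = 0.0416, exact permutation). These 3 exons are neighbours and share junctions, so they are not independent. The siRBM39 calls of exon 3 were lost without replicate 1 or 2, those of exon 5 without replicate 1, 2 or 4, and the siSF3B1 call of exon 5 in DMSO without replicate 1 or 4. Exon 8, 61 nt, and exon 18, 75 nt, lost inclusion with siSF3B1 in 4OHT, with differences of −6.8 ± 2.8 and −13.98 ± 4.0 points (SE, limma, adjusted p = 0.0141 and 2.38e-07). The exon 8 call was lost with siNT1 as the only control (−3.8 points), with siSF3B1-16 alone and without replicate 2 or 4 (limma, adjusted p = 0.556, 0.0883, 0.0680 and 0.118). A 118-nt exon with no GENCODE match was at 13.8% in DMSO siNT and 2.0% in siSF3B1 (exact permutation p = 0.0247).

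Introns of RBM6 rose with siRBM39. Intron 13, 240 nt, went from 1.1 ± 1.3% to 11.6 ± 6.4% in DMSO and from 1.9 ± 1.8% to 12.03 ± 5.5% in 4OHT (exact permutation p = 0.000311 and 0.000622), and the latter difference was 8.75 points, under 10, without siRBM39-08 replicate 4. It was also under 10 points without replicate 4 in DMSO (7.7) and without replicate 3 in 4OHT (9.5). Intron 11, 1209 nt, went from 3.9 ± 3.8% to 14.5 ± 6.7% in DMSO (p = 0.00124, exact permutation). Introns 2 and 14, of 4784 and 414 nt, had uneven ends in 44 and 40 of 48 libraries, so their PSI is less certain. Intron 2 was at 50.2%, 49.9% and 71.8% in DMSO and 35%, 56.2% and 67.7% in 4OHT (siNT, siRBM39, siSF3B1), with exact permutation p = 0.00124 for siRBM39 in 4OHT and 0.00482 and 0.000466 for siSF3B1, and p = 0.0205 between siNT groups. Intron 14 was at 32.8%, 49.96% and 52.9% in DMSO and 26.7%, 54.6% and 50.6% in 4OHT (siNT, siRBM39, siSF3B1). Its calls were those of siRBM39 in 4OHT and of siSF3B1 in each treatment (exact permutation p from 0.00342 to 0.0157). The siSF3B1 call of intron 14 in DMSO was lost without replicate 1 or 4, and the siNT call of intron 2 without replicate 1 or 2.

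Introns 7, 14 and 15 of RBM10 had a higher PSI with siSF3B1. Intron 15, 84 nt at chrX:47041266-47041349, with an in-frame stop, went from 0.2 ± 0.3% to 16.9 ± 4.2% in DMSO and from 0.5 ± 0.6% to 16.8 ± 2.9% in 4OHT, without overlap (exact permutation p = 0.000155 and 0.000155). Reads across its ends went from 1 to 67 and from 2 to 68 in DMSO, while spliced reads went from 744 to 343. In 4OHT the same reads went from 6 to 68, 1 to 50 and 682 to 301. Both ends gained reads here as well. Intron 14, 102 nt, went from 0.5% to 21.4 ± 11.7% and from 1.0% to 21.5 ± 7.4%, also without overlap (p = 0.000155 and 0.000155, exact permutation). Intron 7, 2516 nt, went from 2.4% to 24.3 ± 14.3% and from 1.3% to 15.8 ± 9.5% (p = 0.000155 and 0.000311, exact permutation). Intron 10, 171 nt, rose in 4OHT with each knockdown, from 4.3% to 16.9 ± 12.5% in siRBM39 and 17.3 ± 11.01% in siSF3B1, with overlap (p = 0.0160 and 0.0149, exact permutation). Its reads in 4OHT lay mainly at the 3′ end, with 12, 30 and 24 across it in siNT, siRBM39 and siSF3B1. Across the 5′ end there were 0, 5 and 4.

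Exon 6 of RBM10, 74 nt at chrX:47034418-47034491, whose skipping shifts the frame, went from 96.8 ± 3.6% to 79.9 ± 12.01% with siSF3B1 in DMSO and from 99.4 ± 1.8% to 71.9 ± 13.8% in 4OHT (exact permutation p = 0.000311 and 0.000155), with overlap in DMSO. RBM10 mRNA was lower in the same siSF3B1 libraries. It was also lower in DMSO siRBM39, where intron 15 stood at 1.4% and exon 6 at 91.9%. None of the 6 fitted events of RBM10 was called, and the largest of their differences with siSF3B1 in DMSO was 3.2 points, for the 274-nt intron 21. RBM17 had 1 fitted event, intron 9 of 467 nt, which was 7.0 ± 2.8 points higher with siRBM39 in 4OHT, at 10.2% against 3.3% (limma, adjusted p = 0.0210), with overlap. This rests on few libraries: the difference was 3.9 points without replicate 1 and 3.8 with siRBM39-06 alone (limma, adjusted p = 0.262 and 0.329), and the highest library, siRBM39-08 replicate 1, stood at 25.9%. The call was also lost without replicate 4, with siNT1 as the only control, with no range filter and with only the groups compared fitted. From siNT to siRBM39 in 4OHT, reads across the 5′ end of intron 9 went from 15 to 43. Reads across its 3′ end went from 4 to 0, so only the 5′ end gained reads. Intron 8 of RBM17, 1146 nt, went the other way with siSF3B1 in DMSO, from 17.2 ± 8.6% to 5.3 ± 5.3% (exact permutation p = 0.00311).

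**Figure D5:**
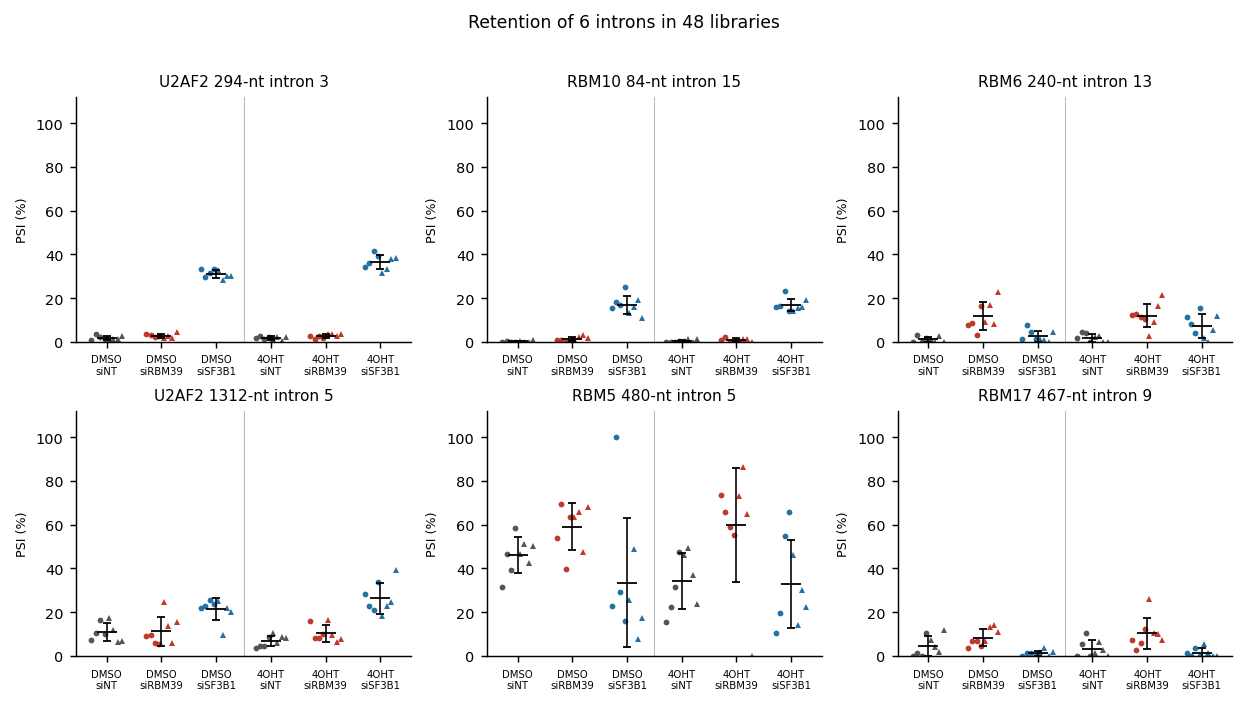
PSI in percent (y axes) of 6 introns of U2AF2, RBM10, RBM6, RBM5 and RBM17 in the 48 libraries, by group (x axes); circles and triangles are the first and second siRNA of a target and black bars the mean ± SD of 8 libraries, cut at 0. The U2AF2 294-nt and RBM10 84-nt introns are raised in siSF3B1 with no overlap with siNT, and the RBM6 240-nt intron is raised in siRBM39.

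The knockdown effects on splicing differed between treatments for none of the 31 fitted events with siRBM39 (0.0361% of all fitted events) and for 1 with siSF3B1 (0.347%), the 54-nt exon of RBM23, by −10.9 points (limma interaction, adjusted p = 0.0499, 0.0125 to 0.255 over its 15 alternatives). Between siSF3B1 and siRBM39, 6 of the 31 events differed in DMSO (17.4% of all fitted events) and 11 in 4OHT (20%). Outside the fit, 14 of 176 (4.64%) and 13 of 162 (5.48%) differed.

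Among 28 partners of these proteins at the 3′ splice site and in the U2 snRNP, 26 were tested. With siRBM39, 17 rose and 0 fell in DMSO (46.1% of genes called, 23.9% higher and 22.2% lower) and 13 rose and 2 fell in 4OHT (56.4% of genes called, 32.2% higher and 24.3% lower), with a median log2 fold change of 0.22 and 0.11, against 0.02 and 0.05 over all genes. SF1, the branch point binding protein, rose by log2 0.54 ± 0.05 and 0.64 ± 0.05, and DDX39A, an RNA helicase, by 0.72 ± 0.12 and 0.64 ± 0.12 (edgeR, adjusted p = 7.19e-12, 2.55e-14, 3.50e-06 and 1.54e-05). SNRPA1, a U2 snRNP protein, and SUGP1 were those that fell in 4OHT, by log2 0.25 ± 0.06 and 0.25 ± 0.08. With siSF3B1, 13 rose and 9 fell in DMSO (72.7% of genes called, 36.5% higher and 36.2% lower) and 10 rose and 10 fell in 4OHT (77% of genes called, 39.4% higher and 37.6% lower), SF3B1 among those that fell. The median log2 fold change of the 26 was 0.03 and −0.05, against 0.02 and 0.03 over all genes. DDX46, a helicase of the U2 snRNP, rose by log2 1.30 ± 0.06 and 1.13 ± 0.06 (edgeR, adjusted p = 2.32e-23 and 1.88e-21). RBM22 rose by 0.79 ± 0.05 and U2SURP fell by 0.82 ± 0.09 in DMSO, while SNRPA1 fell by 1.48 ± 0.06 in 4OHT. In 4OHT against DMSO siNT, 12 rose and 5 fell (78.1% of genes called, 39% higher and 39.1% lower), with a median of 0.12 against −0.00.

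The genes whose log2 CPM followed that of a member most closely were found by Pearson correlation over libraries, which share treatment groups. For RBM39, over the 32 libraries without siRBM39, they were SRSF3 (r = 0.989), C5orf22 (0.986) and BICRA (0.985). For RBM23, over 48 libraries, they were SRSF3 (r = 0.969), OBI1 (0.945) and FKBP7 (0.942). U2AF1 was followed by ENY2 (r = 0.959), TENT5C (0.950) and LAMP1 (0.938), and U2AF2 by CSNK1G2 (0.961), FBRS (0.959) and ZNRD2 (0.958). SRSF3, a serine and arginine rich splicing factor, headed the lists of RBM39 and RBM23.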

How the data were processed

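Poly(A)-selected RNA of 48 libraries was sequenced and processed by the authors with vast-tools. The authors deposited raw read counts per gene, cRPKM (RPKM corrected for mappability) and the percent spliced in (PSI) with junction reads of each event. Their table of normalised CPM was not used. The event table is named hg19 but its coordinates are GRCh38, so events were matched to GENCODE 44 models on GRCh37 by the lengths of exons and flanking introns, with no conversion of coordinates.

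Counts were tested with edgeR 4.0.16 (quasi-likelihood, TMM, R 4.3.3) on 9991 genes with at least 10000 counts in total, with 1 mean for each of 6 groups and Benjamini-Hochberg adjustment over all genes at 0.05. PSI was tested with limma 3.58.1 on logit(0.01 + 0.98 PSI/100), by event class (7673 exons, 5248 introns, 547 Alt3 and 371 Alt5 sites), for events with sufficient coverage in all libraries, a range of at least 5 points and, for introns, ends with even reads (balance p not under 0.05). Intron reads are those across the 5′ end, across the 3′ end and across the spliced junction. The tests were tried on simulated data with known changes, and the share recovered is not given here. The smallest simulated exon shift equalled the 5 points needed for a call, so estimates that fell below it could not be called. Those data held no difference between the siRNAs of a group and no library that stood apart, unlike the real groups. Depth per library is given with the results, and intervals cover counting error only.

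The members and lists were chosen with earlier results of these data known. All members and SF3B1 were named, with the 2 largest rises and falls called among 28 partners for each knockdown (a gene withheld by rule is not reported here), the 3 genes of highest correlation for RBM39, RBM23, U2AF1 and U2AF2, and up to 3 called events for each member and comparison with the largest differences. Events outside the fit, junction shares and the poison exon measure were added after values were seen. The labels give 4 replicates for each siRNA where the methods state 3 independent experiments. No sample column was left unused (0). Alternatives tried were DESeq2 1.42.0, limma-voom, other filters, single siRNAs, a replicate block and leaving out each replicate. Figures were drawn with matplotlib 3.10.9.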

Additional observations from a re-analysis of the deposited data

Results flagged for a closer look

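Of 54 groups of libraries checked over the 9 genes, 6 held a library far from the other 7, where chance gives about 1 in 20. In 4 of them it was 4OHT siRBM39-08 replicate 4, the highest of its group at 296.8 CPM for PUF60, 60.9 for RBM5, 94.3 for RBM6 and 73.1 for RBM10. The others were the highest RBM10 value of DMSO siRBM39, 60.7 CPM in siRBM39-06 replicate 1, and the lowest PUF60 value of DMSO siNT, 86.4 CPM in siNT1 replicate 1.

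Of 66 groups checked over called events, 6 held such a library. RBM6 exon 8 was lowest at 85.9% in 4OHT siNT1 replicate 1, and the upstream U2AF1 exon was lowest at 95.5% in 4OHT siNT1 replicate 4. RBM6 exon 18 was lowest at 95.6% in DMSO siNT2 replicate 3 and at 94.5% in 4OHT siRBM39-08 replicate 1. The 90-nt PUF60 exon was lowest at 95.2% in 4OHT siRBM39-08 replicate 2, and RBM17 intron 9 was highest at 25.9% in 4OHT siRBM39-08 replicate 1. Except for RBM6 exon 8 and RBM17 intron 9, the other libraries of these groups all stood at 100%, where a single lower value is always flagged.

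Effects that differed between 4OHT and DMSO were those of siRBM39 on RBM39 (log2 −0.25), of siSF3B1 on RBM39 (log2 0.23) and RBM23 (log2 0.36), and of siSF3B1 on the 54-nt RBM23 exon (−10.9 points), by interaction terms in edgeR and limma.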

How the results depend on the processing

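The counts of members called in the siRBM39, siSF3B1 and 4OHT comparisons stayed within 1.5 times of the reported ones under every gene alternative run. The number of genes whose siRBM39 effect differed between treatments (1) was 2 with DESeq2, with 1 group for each siRNA, with siRBM39-06 alone and without 4OHT siRBM39-08 replicate 4, 3 with siRBM39-08 alone, 0 with siNT1 or siNT2 alone and 0 to 1 on leaving out a replicate. For siSF3B1 (2) it was 1 with genes of at least 1 count, siSF3B1-16 alone or siNT1 alone, 4 when only the groups compared were fitted, and 1 to 2 on leaving out a replicate. The sign turned for PUF60 in the siRBM39 difference between treatments, to log2 −0.29 with siRBM39-06 alone.

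Fitted events called with siRBM39 were 6 without the balance filter in DMSO (3), and 2 at the lower coverage score or on a plain logit scale in 4OHT (4). With siSF3B1 they were 12, 2 and 17 in DMSO (5) without the balance filter, on the plain logit and with no minimum difference, and 23, 2 and 18 in 4OHT (10), with 5 at the lower coverage score. Between siSF3B1 and siRBM39 the same 3 settings gave 16, 3 and 16 in DMSO (6) and 19, 2 and 20 in 4OHT (11), with 5 at the lower coverage score and 6 at 10 points. The plain logit scale tested fewer events, by construction. The event between 4OHT and DMSO (1) was lost (0) on the plain logit, at 10 points and with only the groups compared, and gave 0 to 1 on leaving out a replicate. The siSF3B1 difference between treatments (1) was 0 without the range filter, on the plain logit, with only the groups compared, with any siSF3B1 or siNT siRNA alone and with the replicate block, and 0 to 1 on leaving out a replicate.

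Outside the fit, where fewer libraries also mean fewer reads and splits, siRBM39 gave 2 events with siRBM39-06 alone in DMSO (5), and in 4OHT (10) 4 and 5 with siRBM39-06 and -08 alone, 4 at 200 reads and 4 to 8 on leaving out a replicate. With siSF3B1 these were 6, 7, 7 and 8 to 12 in DMSO (19, siSF3B1-13 and -16) and 9, 8, 7 and 9 to 10 in 4OHT (16). For 4OHT against DMSO (3) they were 1 at 200 reads and 0 to 3 on leaving out a replicate. The cause of these changes was not tested.

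Samples with the same replicate number did not deviate together (median correlation 0.00556 over 240 pairs, lowest −0.906, against 0.00326 over 720 other pairs), so the numbers were not taken as pairs. With the replicate block the genes called were 7, 6, 9, 9 and 8 in the siRBM39, siSF3B1 and 4OHT comparisons. Splicing depth limits RBM5, whose reads in siSF3B1 were few, and RBM39 in siRBM39.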
